A study of Rattus norvegicus with 15 samples.

Results

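The collagen genes are the 42 entries, of 22468 genes in the deposited table, whose symbol is Col followed by a chain number. All 42 are described there as collagen chains and as protein coding. They were divided by type into 6 fibrillar genes (Col1a1, Col3a1, Col5a1, Col5a2, Col5a3 and Col24a1), 8 genes of cartilage collagens (Col2a1, Col9a1, Col9a2, Col9a3, Col10a1, Col11a1, Col11a2 and Col27a1), 9 genes of basement membrane and anchoring collagens (Col4a1 to Col4a6, Col7a1, Col15a1 and Col18a1) and 19 others. Of the chains looked for, Col1a2, Col6a3 and Col21a1 were not analysed here. Polyadenylated RNA of whole bone samples was sequenced, from female rats of the Sprague-Dawley stock, with 5 groups of 3 libraries. Blank rats carried the condition label Blank and no treatment. Model rats carried the condition label Osteoporosis and were ovariectomized, a surgical loss of ovarian oestrogen that is widely used to model bone loss after menopause. The SYT, YJT and YJZYT rats were ovariectomized as well, and what else they received is coded in those 3 names alone. The series title names Zhuanggu Zhitong Capsule, a herbal medicine, without tying it to any of the groups. No sham operation, age, dose or time is given in the labels, and nothing in them ties a library to a named animal, so p-values measure the spread between libraries only. Libraries are named by group and replicate number, as in Model2.

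Collagens are secreted or membrane-anchored proteins built from chains wound together into a helix of repeated glycine triplets. Type I collagen, with types III and V, forms the fibrils of bone, tendon and skin, while types II, IX and XI form the fibrils of cartilage and type X is made by hypertrophic chondrocytes of the growth plate. Type IV collagen forms the network of basement membranes, where types XV and XVIII are attached, and type VI forms beaded filaments around cells. Types XII, XIV, XVI, XIX, XX and XXII attach to the surface of fibrils or lie at tissue junctions, and types XIII, XVII, XXIII and XXV span the cell membrane. In bone, osteoblasts make most of the type I collagen, and chains are hydroxylated, folded and glycosylated in the endoplasmic reticulum before they are secreted, trimmed and cross-linked.

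The totals of the deposited counts were even, from 64472700 to 74255667 per library, and levels are given as the authors' FPKM, a density of fragments adjusted for gene length and sequencing depth. Libraries differed widely in their makeup within groups. The summed FPKM of the 7 osteoblast markers ran from 535 in YJT3 and 878 in YJZYT3 to 6820 in SYT3, with none of the 7 listed at 0 in any library. The summed FPKM of the 8 chondrocyte markers ran from 1.11 in YJZYT3 to 529 in YJT1, and that of the 5 neutrophil markers from 1840 in SYT3 to 26900 in SYT1. S100a8, with a mean of 8880 FPKM, was the largest part of the neutrophil sum, and Camp (1590) the next. Mpo and Elane were also lowest in SYT3, but highest in Blank1 (319) and YJT3 (250), and Ltf was listed at 0 in 8 libraries. YJT3 and YJZYT3 stood apart as low in bone genes, so the counts and medians for their groups are also given without them. In such bulk RNA, fewer cells of a type and less RNA per cell cannot be told apart.

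Col1a1, which encodes the main chain of type I collagen (ENSRNOG00000003897, chromosome 10, 82745801 to 82762789 in the deposited coordinates, genome build not given in the sources used here), was the most abundant collagen transcript, with a mean of 3340 FPKM over the 15 libraries. Col2a1 of cartilage followed at 739 FPKM. Col3a1 and Col11a1 each had a mean of 138 FPKM and Col5a2 one of 124. These were the 5 members with a mean of at least 100 FPKM. In all, 27 of the 42 had a mean of at least 1 FPKM: all 6 fibrillar, all 8 cartilage, 4 of the 9 basement membrane and 9 of the 19 other genes. The remaining 15 had means under 1 FPKM, and Col19a1, a fibril-associated chain listed at 0 in 12 libraries, was the only member that failed the filter on low counts.

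The collagen genes as a whole varied far more between libraries than most genes did. Their summed FPKM ran from 442.6 in YJZYT3 to 14050 in SYT3, or from 0.0572% to 2.37% of all FPKM. Among the 27 members with a mean of at least 1 FPKM, 16 were highest in SYT3 and 8 in YJT1, while 18 were lowest in YJZYT3 and 6 in YJT3. The ratio of the highest to the lowest library had a median of 26.3 over these 27 genes, against 2.45 over the 13002 genes of the table with a mean of at least 1 FPKM and no value of 0. The median of this ratio was 19.7 for the fibrillar, 921 for the cartilage, 13.1 for the basement membrane and 16.3 for the other genes. YJZYT3 was thus the lowest and SYT3 the highest library for some members of each of the 4 types. Most fibrillar genes were highest in SYT3 (5 of 6), but most cartilage genes in YJT1 (5 of 8). The osteoblast marker sum was highest in SYT3 as well, but lowest in YJT3 (535), with YJZYT3 next (878). The part of cell makeup in these levels was not tested.

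**Figure D1:**
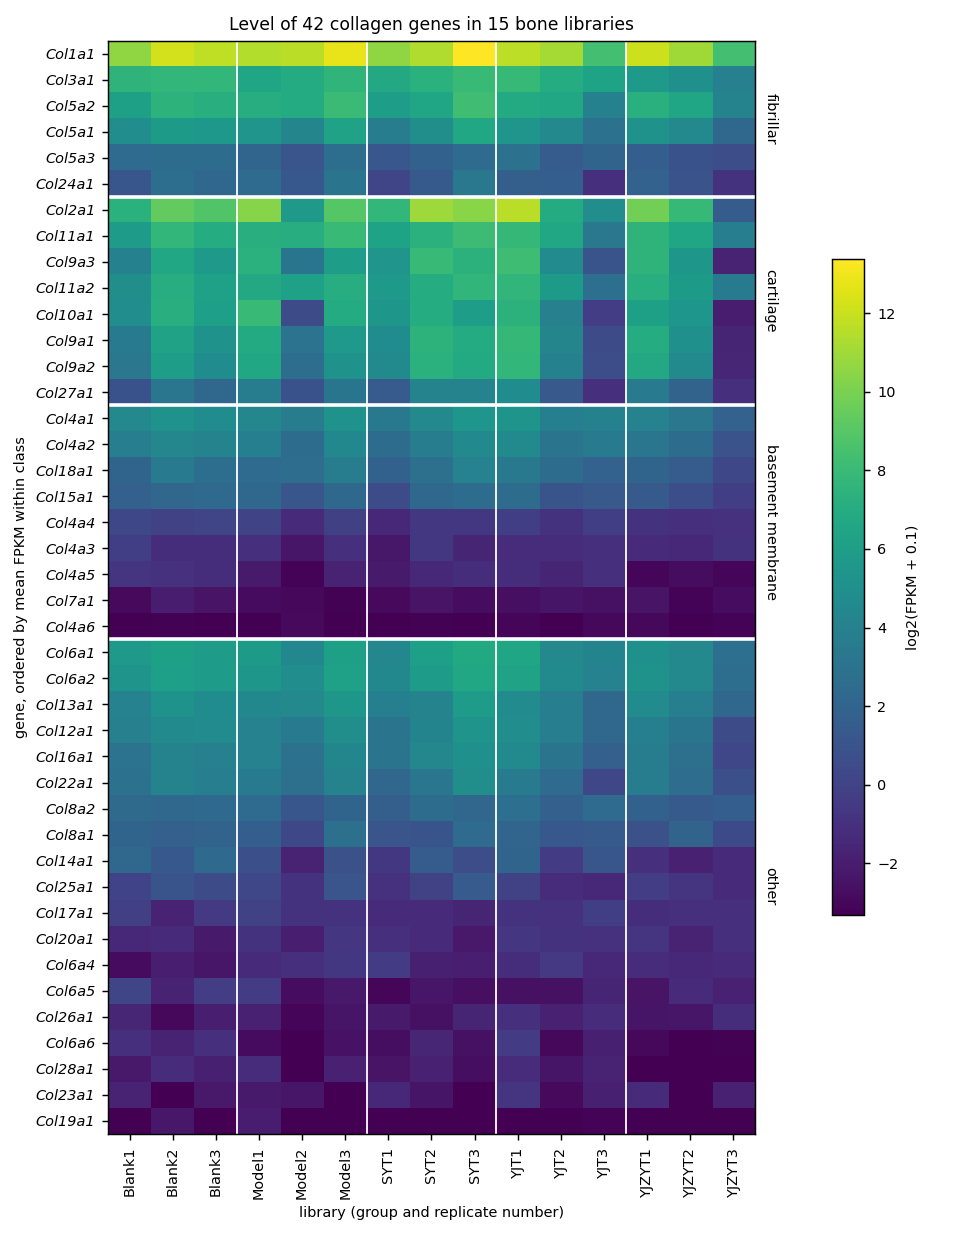
Levels of the 42 collagen genes (rows, ordered by mean FPKM within each type) in the 15 libraries (columns, by group and replicate number), as log2(FPKM + 0.1). YJT3 and YJZYT3 are dark for most fibrillar and cartilage genes, and the rows of the minor chains at the foot of the basement membrane and other types are near the floor in every library.

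Fibrillar genes held the largest share of the summed collagen FPKM in 13 of 15 libraries. Their share ran from 43.1% in YJT1 to 89.3% in Model2. Cartilage genes ran from 6.62% in YJZYT3 to 52.6% in YJT1, and exceeded the fibrillar genes in SYT2 (48.5% against 47.3%) and YJT1 (52.6% against 43.1%). Basement membrane genes held 0.511% (YJZYT1) to 5.81% (YJT3), and the other genes 2.2% (YJZYT1) to 10.4% (YJT3). Shares moved within groups as much as between them: the 3 Model libraries gave 40.4%, 7.38% and 12.6% for cartilage collagens.

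**Figure D2:**
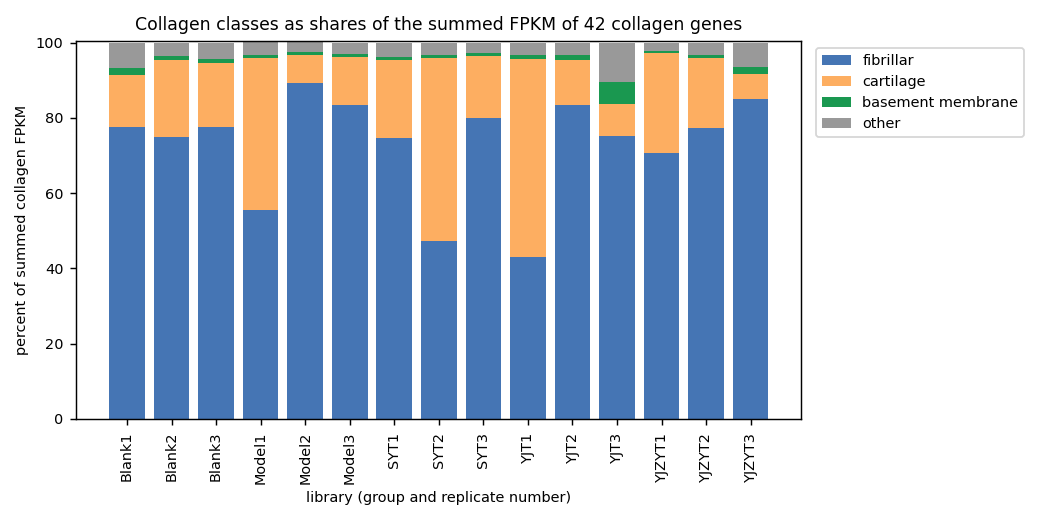
Share of the summed FPKM of the 42 collagen genes held by each type (percent, stacked bars) in each library. The cartilage part is largest in YJT1 (52.6%), SYT2 (48.5%) and Model1 (40.4%) and smallest in YJZYT3 (6.62%).

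Among the fibrillar genes, Col1a1 was at 1524, 4687 and 3508 FPKM in the Blank libraries, 2761, 3224 and 7082 in Model, 1564, 2622 and 10571 in SYT, 3265, 2188 and 341 in YJT, and 4371, 2030 and 337 in YJZYT. Each group overlapped each other group, and the low values of YJT3 and YJZYT3 lay more than an order of magnitude below SYT3. Col5a2, a chain of type V collagen that regulates fibril diameter, followed Col1a1 closely. It was at 72.0, 175 and 148 FPKM in Blank, 135, 123 and 263 in Model, 61.4, 87.8 and 306 in SYT, 117, 98.6 and 15.99 in YJT, and 153, 91.5 and 17.5 in YJZYT. Its ratio to Col1a1 stayed between 0.0289 (SYT3) and 0.0521 (YJZYT3), a 1.8-fold range, although each of both genes ranged at least 19.1-fold. Col5a1, its partner chain, had a mean of 36.8 FPKM and was lowest in YJZYT3 (4.95) and highest in SYT3. Col24a1, a minor fibrillar collagen made in bone, ranged from 0.391 (YJT3) to 10.3 FPKM (SYT3), and Col5a3 only from 1.47 (YJZYT3) to 7.61 (YJT1).

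Col3a1, the fibrillar collagen of soft connective tissue and vessel walls (ENSRNOG00000003357, chromosome 9, 52023295 to 52059217), had another pattern. It was at 187, 212 and 215 FPKM in Blank, 87.9, 123 and 195 in Model, 107, 161 and 249 in SYT, 231, 127 and 81.0 in YJT, and 49.9, 32.7 and 15.1 in YJZYT. All 3 YJZYT libraries lay below every other library, although YJZYT1 and YJZYT2 held Col1a1 at levels within the range of the other groups. Its ratio to Col1a1 therefore ran from 0.0114 (YJZYT1) to 0.238 (YJT3), a 20.8-fold range. In YJZYT1 and YJZYT2 this ratio was 0.0114 and 0.0161, lower than in all 13 other libraries, of which the lowest had 0.0235 (SYT3), while YJZYT3 had 0.0449.

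**Figure D3:**
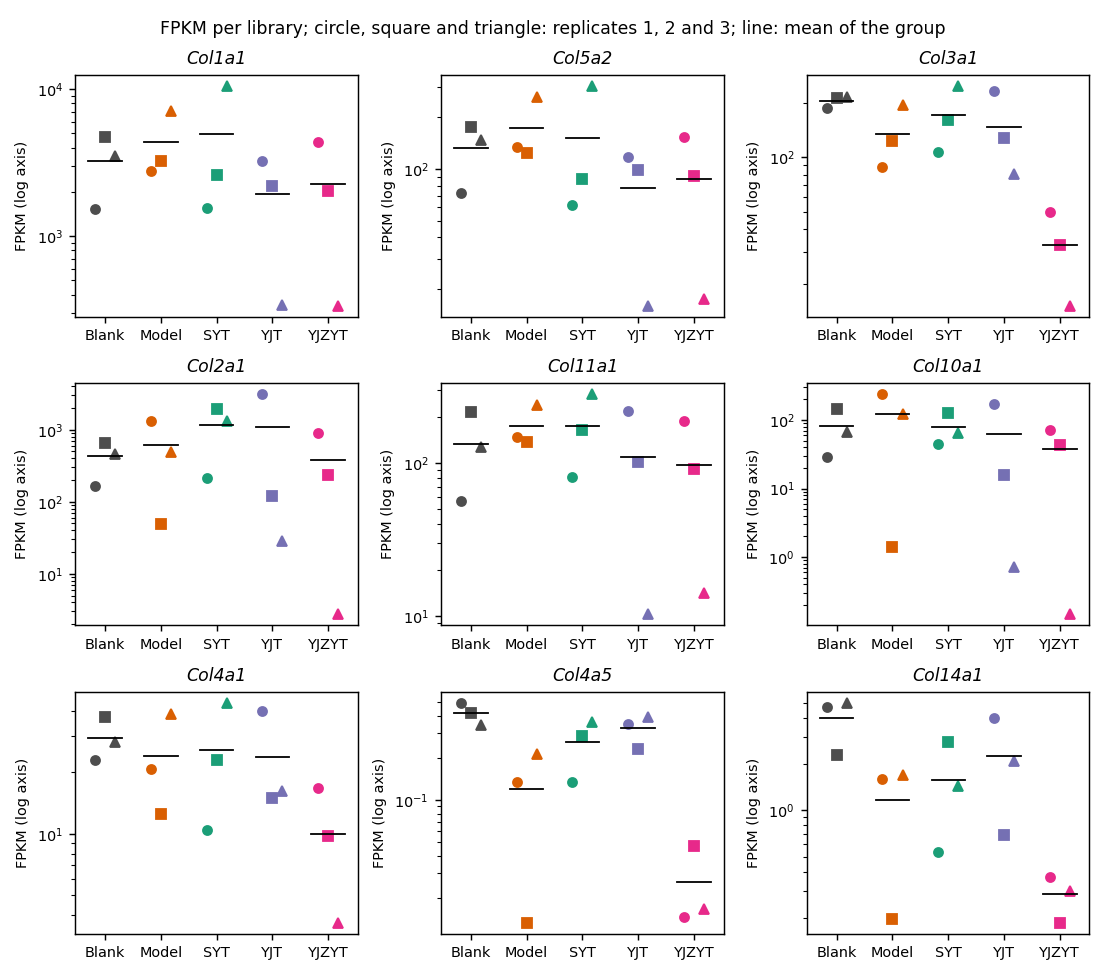
FPKM of 9 collagen genes in each library (log axis, its range set for each gene). Circles, squares and triangles are replicates 1, 2 and 3, and the line is the mean of the group; the 3 YJZYT libraries are the lowest for Col3a1, while for Col1a1 and Col2a1 the groups overlap.

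The cartilage collagens were the most uneven between libraries. Col2a1, the main chain of cartilage fibrils (ENSRNOG00000058560, chromosome 7, 139455242 to 139483997), was at 164, 652 and 466 FPKM in Blank, 1318, 49.6 and 497 in Model, 213, 1952 and 1345 in SYT, 3135, 122 and 28.3 in YJT, and 909, 234 and 2.75 in YJZYT, a 1140-fold range. Col9a1, Col9a2 and Col9a3, the chains of type IX collagen on the surface of those fibrils, ranged 997-fold, 846-fold and 1320-fold, each highest in YJT1 and lowest in YJZYT3. Col10a1 of hypertrophic chondrocytes was at 28.7, 147 and 67.2 FPKM in Blank, 240, 1.40 and 122 in Model, 44.8, 126 and 64.2 in SYT, 171, 15.7 and 0.706 in YJT, and 72.0, 42.7 and 0.147 in YJZYT. Its 1640-fold range was the widest of the 27 genes with a mean of at least 1 FPKM. Every group overlapped every other in each of these 5 genes. The 8 chondrocyte markers summed to 529 FPKM in YJT1, 33.3 in Model2, 4.47 in YJT3 and 1.11 in YJZYT3, with Matn1 or Ucma listed at 0 in 3 values. How far a variable amount of cartilage in the sampled bone accounts for these levels was not tested.

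The sequences below are shown because Col9a1 and Col9a2, on different chromosomes, kept a ratio of 0.907 to 1.38 in all libraries, while the ratio of Col10a1 to Col2a1 ran from 0.025 (YJT3) to 0.245 (Model3), which is still the narrowest range of the 26 pairs that hold Col10a1. They are the 250 bases before the RefSeq transcription start in the rat assembly GRCr8, of Col9a1 at chr9:34081114-34081363, Col9a2 at chr5:139892548-139892797 and Col10a1 at chr20:39737286-39737535, all on the plus strand. Capitals mark matches on either strand to TATAAA (the TATA box), CCAAT (the CCAAT box), GGGCGG (the GC box) and ACAATG (a core bound by SOX factors), none of which overlapped another in these windows.
Col9a1: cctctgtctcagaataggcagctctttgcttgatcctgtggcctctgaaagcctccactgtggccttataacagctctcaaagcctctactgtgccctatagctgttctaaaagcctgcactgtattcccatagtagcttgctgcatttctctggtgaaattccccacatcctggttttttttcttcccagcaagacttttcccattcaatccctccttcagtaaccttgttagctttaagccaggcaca
Col9a2: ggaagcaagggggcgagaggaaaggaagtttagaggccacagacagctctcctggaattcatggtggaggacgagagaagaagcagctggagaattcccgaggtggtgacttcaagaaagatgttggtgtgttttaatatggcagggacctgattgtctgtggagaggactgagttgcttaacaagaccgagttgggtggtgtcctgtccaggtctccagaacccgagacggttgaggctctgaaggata
Col10a1: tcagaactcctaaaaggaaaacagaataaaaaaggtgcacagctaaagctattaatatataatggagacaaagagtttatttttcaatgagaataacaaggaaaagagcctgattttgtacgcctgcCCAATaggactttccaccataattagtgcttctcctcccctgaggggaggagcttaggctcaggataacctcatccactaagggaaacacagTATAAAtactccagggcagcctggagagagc
The Col10a1 window held TATAAA starting 31 bases and CCAAT starting 123 bases before the start. The Col9a1 and Col9a2 windows held none of the 4 motifs, which says only that these letters are not in these windows.

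Col11a1 and Col11a2 encode chains of type XI collagen, a minor fibrillar collagen listed with cartilage, yet their levels followed those of Col1a1 and some other fibrillar genes more closely than that of Col2a1. Col11a1 was at 56.8, 215 and 127 FPKM in Blank, 147, 138 and 240 in Model, 81.3, 165 and 283 in SYT, 219, 102 and 10.2 in YJT, and 188, 91.5 and 14.0 in YJZYT. In Model2, where Col2a1 was at 49.6 FPKM, Col11a1 was at 138, near the 147 of Model1. The ratio of Col11a1 to Col1a1 ranged 2.5-fold, from 0.0268 (SYT3) to 0.067 (YJT1), whereas that of Col2a1 to Col11a1 ranged 73.1-fold, from 0.196 (YJZYT3) to 14.3 (YJT1). Over the 6 pairs of Col11a1 or Col11a2 with Col1a1, Col5a1 or Col5a2, the highest ratio was 2.5 to 5.51 times the lowest, with a median of 3.58. With Col24a1 it was 3.17 and 4.29 times, but with Col3a1 29.8 and 33.6 and with Col5a3 26.9 and 27.0 times. Over their 12 pairs with the 6 other cartilage genes it was 5.98 to 170 times, with a median of 68.8 and the lowest values, 9.84 and 5.98, for Col27a1. Type XI chains are known to be made in bone as well as cartilage and to assemble with type V chains. Because Col11a1 stays closer to Col1a1 than to Col2a1 here, the 250 bases before its start (chr2:204508886-204509135, plus strand, GRCr8) are shown, with 3 matches to GGGCGG and 2 to CCAAT in capitals and a GC content of 65.6%. The windows of Col9a1, Col9a2 and Col10a1 had 46.8%, 52.0% and 41.6%, and that of the fibrillar Col5a2 had 44.8% and none of the 4 motifs.
Col11a1: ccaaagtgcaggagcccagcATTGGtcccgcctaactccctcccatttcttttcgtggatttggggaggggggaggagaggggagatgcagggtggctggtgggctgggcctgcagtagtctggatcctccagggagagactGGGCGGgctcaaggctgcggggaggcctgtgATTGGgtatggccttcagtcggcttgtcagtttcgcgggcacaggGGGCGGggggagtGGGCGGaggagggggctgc
Col27a1, a fibrillar collagen of cartilage, ranged from 0.37 (YJZYT3) to 27.7 FPKM (YJT1) and was lowest and highest in the same libraries as Col2a1.

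Basement membrane collagens were led by Col4a1 and Col4a2, which encode the chains of the type IV collagen found in almost every basement membrane, including those of vessels. Col4a1 was at 23.1, 37.1 and 28.2 FPKM in Blank, 20.7, 12.5 and 38.6 in Model, 10.4, 23.0 and 43.8 in SYT, 40.0, 15.0 and 16.1 in YJT, and 16.7, 9.71 and 3.67 in YJZYT. Every group overlapped every other in Col4a1 except that YJZYT lay below Blank. Col4a2 had a mean of 13.5 FPKM and ranged from 1.79 (YJZYT3) to 25.5 (SYT3). The ratio of Col4a1 to Col4a2 was between 1.39 and 2.12 in all 15 libraries. The pair is arranged head to head on chromosome 16, and in RefSeq only 76 bases lie between the start of Col4a2 on the minus strand and that of Col4a1 on the plus strand. These bases (chr16:84885521-84885596, plus strand, GRCr8, 78.9% GC) are shown whole because they separate chains that are among the most closely matched of the family. The match to GGGCGG, on the minus strand, is in capitals.
Col4a2-Col4a1: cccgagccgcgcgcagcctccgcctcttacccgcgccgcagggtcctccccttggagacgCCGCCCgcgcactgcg
The other head-to-head type IV pairs were less expressed and, in RefSeq, further apart: 412 bases separate the starts of Col4a4 and Col4a3, and 1414 those of Col4a6 and Col4a5. The deposited coordinates differ, with 83.6 kb between Col4a2 and Col4a1, 13.9 kb between Col4a4 and Col4a3 and 296 kb between Col4a6 and Col4a5.

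The remaining basement membrane genes were low. Col18a1, the precursor of endostatin, had a mean of 6.82 FPKM (1.11 in YJZYT3 to 17.0 in SYT3) and Col15a1 one of 3.43 (0.774 in YJZYT3 to 5.99 in YJT1). Col4a4, Col4a3 and Col4a5, chains of the type IV networks of kidney, lung and muscle, had means of 0.644, 0.354 and 0.23 FPKM. Col7a1, the anchoring fibril collagen of skin, had a mean of 0.057 FPKM, and Col4a6 was listed at 0 in 8 libraries and nowhere exceeded 0.0369 FPKM.

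Of the other collagens, Col6a1 and Col6a2 of the filaments around cells were the most abundant, with means of 48.7 and 45.6 FPKM and ranges of 6.76 to 110 and 6.5 to 104, both lowest in YJZYT3 and highest in SYT3. The alternative type VI chains Col6a4, Col6a5 and Col6a6 had means of 0.311, 0.26 and 0.158 FPKM. Among fibril-associated chains, Col12a1 and Col16a1 had means of 17.5 and 13.8 FPKM and Col22a1, known from myotendinous junctions, 10.6. Each was lowest in YJZYT3 or YJT3 and highest in SYT3. Col14a1, found in tendon and around muscle fibres, had a mean of 1.86 FPKM and was highest in Blank3 (5.03). The membrane collagen Col13a1 had a mean of 23.5 FPKM, far above Col25a1 (0.975), Col17a1 (0.464) and Col23a1 (0.139). Col8a1 and Col8a2 of type VIII collagen, made by endothelium among other cells, had means of 3.2 and 4.37 FPKM and ranged 6.2-fold and 3.2-fold, the latter the narrowest range of the 27 genes.

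The steadiest ratios were those of certain chains of the same collagen type. For each of the 351 pairs among the 27 genes with a mean of at least 1 FPKM, the ratio of their FPKM was taken in each library and its highest value divided by its lowest. This range had a median of 14.8 over all pairs and ran from 1.52 to 899. The 5 smallest ranges were Col4a1 with Col4a2 (1.52), Col9a1 with Col9a3 (1.52), Col9a1 with Col9a2 (1.52), Col6a1 with Col6a2 (1.64) and Col11a1 with Col11a2 (1.71), each a pair of chains of the same type, and the next was Col1a1 with Col5a2 (1.8). Other chains of the same type were less steady: Col9a2 with Col9a3 ranged 2.01-fold, Col5a1 with Col5a2 3.07-fold and Col8a1 with Col8a2 5.02-fold. Neighbouring genes included both steady and unsteady pairs. Of the 4 neighbouring pairs in which both genes had a mean of at least 1 FPKM, Col4a1 with Col4a2 and Col6a1 with Col6a2 were among the 5 steadiest, and Col18a1 with Col6a1 ranged 3.46-fold. Col3a1 and Col5a2 lie tail to tail 33.3 kb apart on chromosome 9, with means of 138 and 124 FPKM, and their ratio ranged 15.6-fold. Col9a1 and Col19a1 lie tail to tail 12.8 kb apart, with means of 69.2 and 0.0185 FPKM. Of the 42 genes, 18 formed 10 neighbouring pairs within 1 Mb in the deposited coordinates. Pairs were ranked after their values were seen, the points share libraries, and no test was made.

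**Figure D4:**
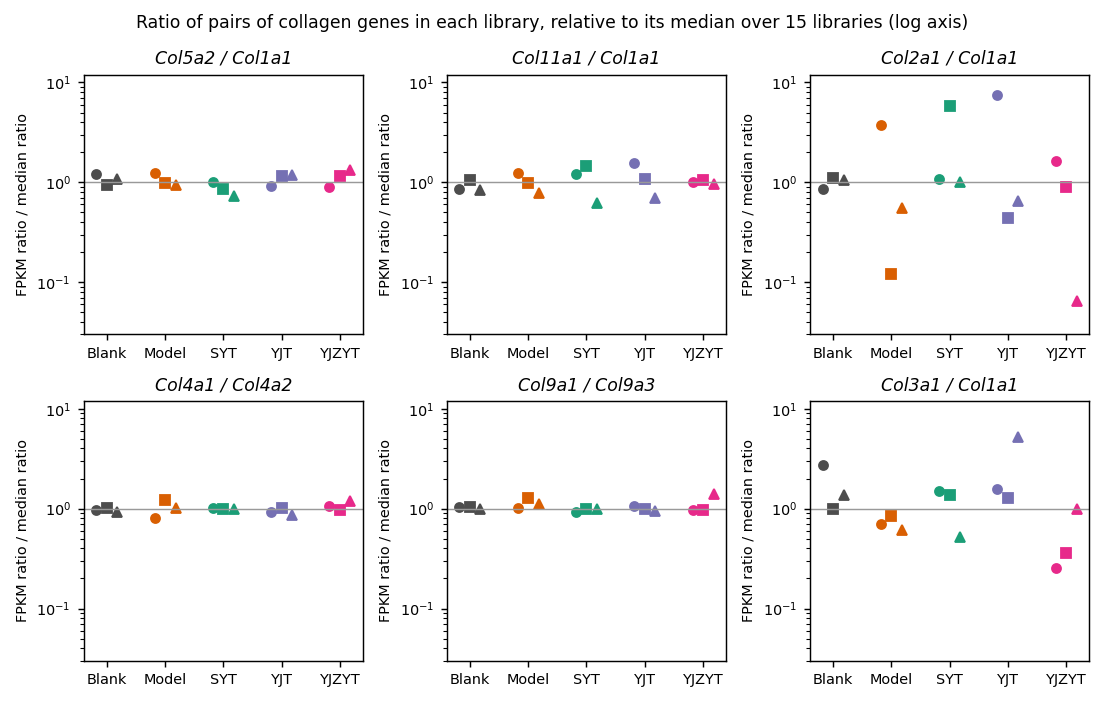
FPKM ratio of 6 pairs of collagen genes in each library, divided by its median over the 15 libraries (log axis, grey line at the median). Circles, squares and triangles are replicates 1, 2 and 3; the chains of type IV, chains of type IX, and Col5a2 with Col1a1 stay near the line, while Col2a1 to Col1a1 ranges 118-fold and Col3a1 to Col1a1 20.8-fold.

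RefSeq start windows were found for 33 of the 42 members, which had 36 of the 33469 windows of 250 bases in the table. GGGCGG was in 55.6% of the members' windows and 30.5% of all windows, CCAAT in 30.6% and 34%, TATAAA in 8.33% and 12.9%, and ACAATG in 5.56% and 11.1%. These shares describe the windows and were not tested.

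Ovariectomy was examined by comparing Model with Blank. Bone of Model rats held Col4a5, Col14a1 and Col6a6 at lower levels than Blank bone in every library, and Col6a4 at a higher level, while the abundant collagens of bone and cartilage overlapped between the groups. No collagen gene passed the test, edgeR's quasi-likelihood test with Benjamini-Hochberg adjustment over all 17657 genes tested and a threshold of 0.05: 0 of 41 members, against 0.0227% of all genes (4 genes). At an unadjusted p under 0.05 there were 5 members (12.2%), against 8.19% of all genes. FPKM did not overlap between the groups for 1 member that was higher (2.44%, against 8.26% of all genes) and 3 that were lower (7.32%, against 7.16%), shares near or below those of all genes. Of the 41 members, 19 had a log2 fold change above 0 (46.3%, against 51.7% of all genes), and their median was -0.15, against 0.02 over all genes. This number ran from 9 of 42 without Blank1 to 28 of 42 without Model2.

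Col4a5 (ENSRNOG00000018951, chromosome X, 112769645 to 112983685) was at 0.495, 0.421 and 0.346 FPKM in Blank and 0.135, 0.0133 and 0.212 in Model. The difference was -1.83 ± 0.69 (log2 fold change ± SE, edgeR adjusted p = 0.475). Col14a1 was at 4.74, 2.28 and 5.03 FPKM in Blank and 1.61, 0.196 and 1.69 in Model, a difference of -1.79 ± 0.74 on the log2 scale (edgeR adjusted p = 0.539). Model2 was the lowest Model library for both genes. Col6a6 was at 0.39, 0.201 and 0.375 FPKM in Blank and 0.0434, 0 and 0.0777 in Model. The 7 skeletal muscle markers in the table summed to 2570 to 3920 FPKM in Blank and 157 to 493 in Model, also without overlap, and none was listed at 0. The 5 endothelial markers in the table summed to 48.2 to 63.7 FPKM in Blank and 37.7 to 48.1 in Model, also apart. The sums of tendon and fibroblast markers and of smooth muscle and pericyte markers overlapped, but not all their members did. Dpt, Tnmd, Myh11 and Acta2 were lower in Model without overlap, as in Dpt with 22.2, 14.2 and 26.2 FPKM in Blank and 4.44, 0.354 and 8.68 in Model. Pi16, Fmod, Dcn, Thbs4, Scx, Rgs5, Cspg4 and Tagln overlapped. The part of attached muscle and of these other cells in the collagen differences was not tested. Col6a4 was at 0.0391, 0.166 and 0.103 FPKM in Blank and 0.301, 0.39 and 0.565 in Model, with a log2 fold change of 1.99 ± 0.66 (SE, edgeR adjusted p = 0.407). Col14a1 and Col6a6 are named because their levels did not overlap, which was seen in these values. Col7a1, the fifth member with a small unadjusted p, had a log2 fold change of -1.86 ± 0.77 at levels of 0.142 FPKM or less.

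All 8 cartilage genes and 4 of 6 fibrillar genes had log2 fold changes above 0 in Model, with medians of 0.43 and 0.13, against -0.32 for the basement membrane and -0.24 for the other genes. With the replicate number as a block the cartilage median was 0.05 and the fibrillar one 0.08, and 15 members in all were above 0. These medians also rested on single libraries. That of cartilage genes was -0.59 without Model1, that of fibrillar genes -0.44 without Model3, and that of the other genes 0.10 without Model2. Col1a1 differed by 0.40 ± 0.95 (log2 fold change ± SE) and Col2a1 by 0.48 ± 1.65, so that changes of either sign were within the error. Col3a1 differed by -0.60 ± 0.46 (edgeR adjusted p = 0.824).

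In SYT bone, collagen levels overlapped those of Model for all tested members but Col17a1, the membrane collagen of hemidesmosomes, which was lower (0.295, 0.291 and 0.236 FPKM against 0.862, 0.45 and 0.445). None of the 41 members passed the edgeR test (0% of all genes passed), and 0 were at an unadjusted p under 0.05, against 3.16% of all genes. The non-overlap of 1 lower member (2.44%) compares with 13% of all genes, and the 0 higher members with 0.934%. Col7a1 was higher without overlap once FPKM were divided by the TMM factor, which scales for library makeup. There were 32 members with a log2 fold change above 0 (78%, against 53.2% of all genes), with a median of 0.39. Without scaling factors, where the median of all genes was -0.22 and not 0.02, 29 were above 0, and without SYT3 only 18 of 42 were. The class medians were 0.99 for cartilage, 0.44 for other, 0.28 for basement membrane and 0.18 for fibrillar genes, the last -0.04 without scaling factors. The cartilage median ran from 0.50 without Model2 to 1.83 without Model1. Without SYT3 the medians of fibrillar, basement membrane and other genes were -0.80, -0.27 and -0.05. Col1a1 differed by 0.39 ± 0.95 and Col2a1 by 1.13 ± 1.67 on the log2 scale. The smallest p of a lower member was that of Col6a5, at 0.667, 0.0484 and 0.119 FPKM in Model and 0.0147, 0.103 and 0.0612 in SYT, groups that overlap, with a log2 fold change of -1.98 ± 0.93 that became -0.25 without Model1. Of the higher members it was that of Col4a5, at 0.135, 0.286 and 0.359 FPKM in SYT, with a log2 fold change of 1.35 ± 0.68 (edgeR adjusted p = 1).

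In YJT bone, Col4a5, Col7a1 and Col26a1 were above Model in every library and Col5a2 was below it. None of the 41 members passed the edgeR test (0% of all genes passed), and 3 were at an unadjusted p under 0.05 (7.32%, against 6.58% of all genes). FPKM did not overlap for 3 higher members (7.32%, against 3.9% of all genes) and 1 lower (2.44%, against 10%). After division by the TMM factor Col5a2 overlapped, and Col4a3 was higher without overlap. Col4a5 was at 0.35, 0.232 and 0.394 FPKM in YJT, a log2 fold change of 1.59 ± 0.68 (edgeR adjusted p = 0.749). The skeletal muscle markers summed to 1600 to 1840 FPKM in YJT, against 157 to 493 in Model, without overlap, and their part in this difference was not tested. Col7a1 was at 0.0574, 0.0898 and 0.0692 FPKM, against 0.0373, 0.0269 and 0.00569 in Model, with a log2 fold change of 1.74 ± 0.77 at 5 to 66 counts per library in the 2 groups. Col6a6, the third member with a small unadjusted p, overlapped Model (0.667, 0.0276 and 0.175 FPKM). The refit without YJT3 and YJZYT3 left 1 member at an unadjusted p under 0.05 (5.15% of all genes).

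YJT1 was the highest and YJT3 the lowest YJT library for all cartilage genes and all fibrillar genes but Col5a3, so the YJT means of these genes describe neither. For Col4a1, Col4a2 and Col15a1 the lowest YJT library was YJT2. There were 24 members with a log2 fold change above 0 (58.5%, against 48.2% of all genes). It was 19 without scaling factors, where the median of all genes was -0.16 and not -0.02. It was 12 of 42 without YJT1 and 30 of 42 without YJT3. The median of the cartilage genes was 0.58, but -2.17 without YJT1, and that of the fibrillar genes was -0.85, and -1.32 without YJT1. Basement membrane genes had a median of 0.20, which was -0.15 without Model2, and other genes one of 0.01, which was -0.13 without scaling factors. Without YJT3 and YJZYT3 the medians were 1.15 for cartilage, -0.38 for fibrillar, 0.40 for basement membrane and 0.37 for other genes. Col1a1 differed by -0.97 ± 0.96 and Col2a1 by 0.9998 ± 1.66 on the log2 scale, and Col3a1 by 0.28 ± 0.46. The smallest p of a lower member was that of Col25a1, a membrane collagen of neurons and muscle, with 0.822, 0.343 and 0.275 FPKM against 1.07, 0.435 and 2.0 in Model and a log2 fold change of -1.09 ± 0.68 (edgeR adjusted p = 0.797).

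In YJZYT bone, Col3a1 and Col18a1 were below Model in every library, Col28a1 was not counted at all, and fold changes of most collagens lay below 0. None of the 41 members passed the edgeR test (0% of all genes passed), and 5 were at an unadjusted p under 0.05 (12.2%, against 7.29% of all genes). FPKM did not overlap for 3 lower members, Col3a1, Col18a1 and Col17a1 (7.32%, against 11% of all genes), of which Col17a1 overlapped after division by the TMM factor, and for 0 higher members, against 4.09% of all genes. There were 8 members with a log2 fold change above 0 (19.5%, against 42.3% of all genes), and 9 of 42 without YJT3 and YJZYT3. Leaving out single libraries gave 5 to 12. Without YJT3 and YJZYT3, 2 members were at an unadjusted p under 0.05 (3.39% of all genes). The medians were -1.09 for basement membrane, -0.89 for fibrillar, -0.79 for other and -0.54 for cartilage genes, against -0.07 over all genes. Without YJT3 and YJZYT3 they were -0.75, -0.57, -0.51 and 0.0015, and without Model1 that of cartilage genes was 0.34. Without scaling factors the median of all genes was -0.22, and 5 members were above 0.

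Col3a1, whose levels are given above, had a log2 fold change of -1.94 ± 0.48 (SE), with an edgeR p of 0.00132 and an adjusted p of 0.638. It was -1.61 without YJT3 and YJZYT3, and -2.35 to -1.56 when single libraries were left out. DESeq2 gave -1.92 with an adjusted p of 0.0173, a call that edgeR did not make. The tendon and fibroblast markers, 7 genes of which Tnmd was listed at 0 in 2 libraries, summed to 53.9 to 224 FPKM in YJZYT and 276 to 428 in Model. Dcn, with a mean of 212 FPKM over the 15 libraries, was the largest part of this sum. Only Dcn and Thbs4 were below Model in every YJZYT library, while Pi16, Dpt, Fmod, Scx and Tnmd overlapped. The 5 endothelial markers in the table summed to 18.3 to 32.1 FPKM in YJZYT and 37.7 to 48.1 in Model, and the 5 of smooth muscle and pericytes to 25.5 to 53.9 and 47.7 to 114. The part of these cells in the Col3a1 difference was not tested. Col18a1 was at 4.09, 2.76 and 1.11 FPKM in YJZYT against 5.66, 6.23 and 12.7 in Model, with a log2 fold change of -1.51 ± 0.62 (edgeR adjusted p = 0.646).

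Col28a1, a minor collagen (ENSRNOG00000033618, chromosome 4, 34048533 to 34194764), had 0 counts in all 3 YJZYT libraries, 85, 0 and 50 in Model, 33, 91 and 47 in Blank, 23, 50 and 16 in SYT and 90, 26 and 58 in YJT. Against a floor of 3 counts per library, its mean count, as a share of the library total, was at least 15.5-fold lower in YJZYT than in Model and at least 19-fold lower than in Blank. Model2 was at 0 as well, and the edgeR adjusted p against Model was 0.638. Col4a5 was at 0.0147, 0.0468 and 0.0166 FPKM in YJZYT (8, 26 and 9 counts), with a log2 fold change of -1.96 ± 0.72, and Col14a1 at 0.369, 0.186 and 0.299 FPKM, with one of -1.86 ± 0.75. Both overlapped Model only through Model2. The skeletal muscle markers summed to 22.6 to 429 FPKM in YJZYT. Col7a1 had the smallest p of the members with a fold change above 0 (1.17 ± 0.76, edgeR adjusted p = 0.765). Col1a1 differed by -0.85 ± 0.96 and Col2a1 by -0.57 ± 1.65.

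**Figure D5:**
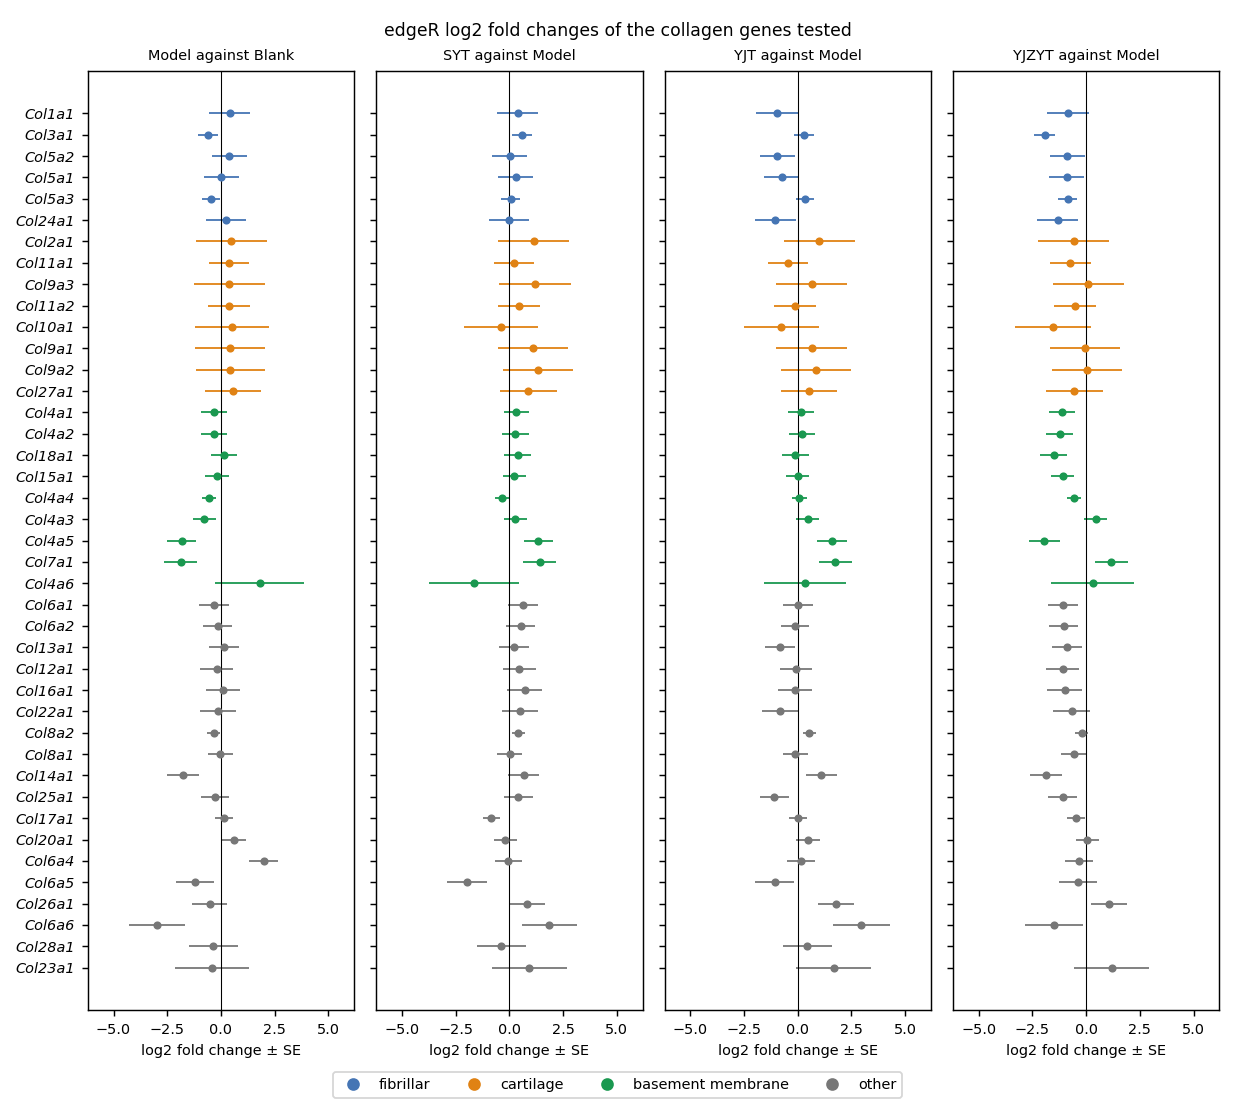
log2 fold changes ± SE (edgeR) of the 41 collagen genes tested, in the 4 comparisons, coloured by type. Col28a1 is not drawn in the YJZYT panel because all 3 libraries are at 0. Among the abundant members, error bars are widest for the cartilage genes other than Col11a1 and Col11a2. Points lie mostly left of 0 in YJZYT.

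Over all 5 groups, Col3a1 and Col4a5 had the smallest p of the family, each 0.00195 with an edgeR adjusted p of 0.256. None of 41 members passed, against 0.0227% of all genes, and 7 were at an unadjusted p under 0.05 (17.1%, against 7.71%). For Col4a5 the lowest levels were in Model2 and the YJZYT libraries and the highest in Blank1 and Blank2. DESeq2 called 4 members over all groups (3.51% of all genes), 2 in YJZYT against Model (0.37%) and none in YJT (0.544%), SYT (0.153%) or Model against Blank (1.64%). With a 2-fold change required beside the unadjusted p, the members numbered 5, 0, 3 and 5 in the order Model against Blank, SYT, YJT and YJZYT, against 3.89%, 1.83%, 3.38% and 2.87% of all genes. The comparisons with Model share its 3 libraries, so their values for a member are not independent of each other.

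Between the treated groups, the lowest unadjusted p-values were those of Col3a1, Col4a5 and other members with log2 fold changes below 0 in YJZYT. Again none of 41 members passed the edgeR test between any of these groups, nor did any other gene. Between YJZYT and SYT, 12 members were at an unadjusted p under 0.05 (29.3%, against 9.1% of all genes), all lower in YJZYT. They were the basement membrane genes Col4a1, Col4a2, Col4a5, Col15a1 and Col18a1, the type VI genes Col6a1, Col6a2 and Col6a6, and Col3a1, Col14a1, Col25a1 and Col28a1. Levels did not overlap for 5 of these, Col3a1, Col4a5, Col6a6, Col14a1 and Col28a1 (12.2%, against 3.68% of all genes), and Col17a1 alone was higher in YJZYT (2.44%, against 9.64%). Between treated groups, overlap was judged on FPKM that were not divided by the TMM factor. For Col17a1 the nearest libraries were SYT1 (0.295 FPKM, TMM factor 0.8184) and YJZYT1 (0.347, factor 1.015), so its separation depends on that choice. Col3a1 differed by -2.51 ± 0.49 (edgeR adjusted p = 0.231) and Col4a5 by -3.31 ± 0.74 (adjusted p = 0.32). Of the 41 members 7 had a log2 fold change above 0 (17.1%, against 45.6% of all genes). Without SYT3, 5 members were at an unadjusted p under 0.05 (5.02% of all genes), and without YJT3 and YJZYT3 also 5 (4.75%). Col3a1 was at -2.18 in both. The summed markers of tendon and fibroblasts were 53.9 to 224 FPKM in YJZYT and 183 to 479 in SYT, those of smooth muscle and pericytes 25.5 to 53.9 and 49.2 to 125, and those of endothelium 18.3 to 32.1 and 23.7 to 67.6. Their part was not tested.

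Between YJZYT and YJT, 9 members were at an unadjusted p under 0.05 (22%, against 6.39% of all genes), again all lower in YJZYT. Levels did not overlap for Col3a1, Col4a5, Col14a1, Col17a1 and Col28a1 (12.2%, against 6.42% of all genes), and 0 members were higher, against 3.72%. Col4a5 differed by -3.54 ± 0.75 (edgeR adjusted p = 0.12), and Col3a1 by -2.22 ± 0.48 (adjusted p = 0.125). Of the 41 members 5 had a log2 fold change above 0, against 49.1% of all genes, Col1a1 and Col5a2 among them. The summed skeletal muscle markers, 22.6 to 429 FPKM in YJZYT, did not overlap those of YJT (1600 to 1840). The sums of smooth muscle and pericytes, 25.5 to 53.9 FPKM in YJZYT and 88.6 to 142 in YJT, did not overlap either. The sums of tendon and fibroblasts and of endothelium overlapped. Of the tendon and fibroblast markers, Pi16, Dpt, Thbs4 and Tnmd were lower in YJZYT without overlap, while Dcn, Fmod and Scx overlapped. Dpt was at 1.36, 0.228 and 1.17 FPKM in YJZYT and 21.5, 3.68 and 12.5 in YJT. The part of these cells was not tested. The refit without YJT3 and YJZYT3 had 5 members at an unadjusted p under 0.05 (5.53% of all genes), and Col3a1 differed by -2.22. Between YJT and SYT, Col25a1 was the 1 member at an unadjusted p under 0.05 (-1.51 ± 0.68, adjusted p = 0.931; 2.44%, against 3.05% of all genes). Col17a1 and Col20a1 were higher in YJT without overlap (4.88%, against 5.27%), and 0 members were lower (against 1.69%). For Col20a1 the nearest libraries were SYT1 (0.389 FPKM, TMM factor 0.8184) and YJT3 (0.418, factor 1.08), so its separation also depends on the scaling. Of the 41 members, 16 had a log2 fold change above 0 (39%, against 48.6%), a number that was 25 of 42 without SYT3 and 26 of 42 without YJT3 and YJZYT3.

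Genes that make, mature and bind collagen also overlapped between groups for the most part, and none passed the edgeR test in any comparison. Of the synthesis list, 22 of 24 genes were in the table. Serpinh1, the chaperone of procollagen, was the most abundant (mean 265 FPKM) and ran from 35.1 in YJT3 to 608 in SYT3. P4hb and Ppib, which serve many secreted proteins, were at 142 to 271 and 148 to 251 FPKM, and Plod2, a lysyl hydroxylase, at 14.9 to 157. In Model, 17 of 22 synthesis genes had a log2 fold change above 0 against Blank (median 0.15), in SYT 22 of 22 against Model (0.14), in YJT 4 of 22 (-0.41) and in YJZYT 0 of 22 (-0.59), beside 51.7%, 53.2%, 48.2% and 42.3% of all genes. The SYT values were 7 of 22 (-0.08) without scaling factors, when 25.3% of all genes were above 0, and 5 of 22 (-0.25) without SYT3. Without YJT3 and YJZYT3 the YJT values were 6 of 22 (-0.18) and the YJZYT values 2 of 22 (-0.32). Of the maturation list, 12 of 13 genes were in the table, led by Pcolce (an enhancer of procollagen cleavage, up to 250 FPKM), the procollagen proteinase Bmp1 (7.49 to 82.1), the cross-linking enzyme Lox (3.44 to 68.3) and Adamts2 (1.54 to 26.2), each highest in SYT3. Their medians in the 4 comparisons were 0.15, 0.36, -0.54 and -0.67, with 7, 11, 4 and 2 of 12 above 0. Without SYT3 the SYT median was -0.40 (3 of 12), and without YJT3 and YJZYT3 those of YJT and YJZYT were -0.16 and -0.30.

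Of the 10 receptor genes, all in the table, Itgb1, the shared integrin beta chain, was the most even (44.0 to 99.0 FPKM). Mrc2, an endocytic collagen receptor, ran from 2.68 to 45.0 FPKM and Itga11, a collagen-binding integrin chain of mesenchymal cells, from 2.52 to 13.7. Gp6, the collagen receptor of platelets and their precursors, ran the other way, from 1.7 FPKM in SYT3 to 37.5 in Blank1, with 33.3 in YJT3 and 32.4 in YJZYT3. Medians of the receptor genes were -0.12, 0.04, -0.65 and -0.80 in the 4 comparisons, with 4, 5, 2 and 2 of 10 above 0. The SYT median was -0.51 without SYT3 and -0.18 without scaling factors, and those of YJT and YJZYT were -0.30 and -0.49 without YJT3 and YJZYT3.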

How the data were processed

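RNA of 15 bone libraries was analysed. Trizol extraction preceded selection on oligo(dT) beads, per the labels' protocols, and libraries were marked with dUTP, ligated to adapters with molecular identifiers and sequenced in paired ends on an Illumina NovaSeq. Tools listed without a role, per the submitters' processing notes, are HISAT2 2.0.4, StringTie 1.3.4d, cutadapt 1.9, UMI-tools, edgeR and DESeq2. Genome build, annotation, counting step and strand setting: not given in the sources used here. Genes that overlap may therefore share reads. The table deposited by the authors holds, for each gene and library, a raw count in whole numbers and an FPKM, per the file headers. Group and replicate number came from the titles and condition labels.

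Deposited counts were filtered with filterByExpr (17657 of 22468 genes tested), scaled with TMM and fitted with edgeR 4.0.16 (R 4.3.3) by its robust quasi-likelihood method, all 15 libraries and 5 group means together (10 residual degrees of freedom), with Benjamini-Hochberg adjustment over all genes tested and a threshold of 0.05, two-sided. The standard error is the size of the log2 fold change divided by the root of F. Library totals of 64472700 to 74255667 leave counting error small for abundant members. The fit was tested on simulated data. Levels and ratios use the authors' FPKM; a ratio of FPKM compares genes within a library. Alternatives were other scaling, filters, DESeq2 1.42.0, limma 3.58.1 on log2(FPKM + 1) and log2(FPKM + 0.1), a replicate block, and libraries left out. Same-numbered Model and Blank libraries deviated together from their group means over genes (correlations of 0.35, 0.337 and 0.118), which no label explains.

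Members, lists and the naming rule were chosen with earlier results of these data known. By that rule 23 members are named: the 4 highest by mean in each of the 4 types, those past the threshold, those with the smallest p in each direction of each comparison, and the 3 with the widest range. Other members were named after their values were seen. Promoter windows are from RefSeq (GRCr8), matched by symbol.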

Additional observations from a re-analysis of the deposited data

How the results depend on the processing

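No member passed in any of the 5 edgeR tests, and the count stayed 0 with RLE factors, no scaling, other filters, limma (which tested 28 members), single libraries left out, YJT3 and YJZYT3 left out, and the replicate number as a block. At an unadjusted p under 0.05 with a 2-fold change, 5 members passed in Model against Blank (3.89% of all genes did), 3 in YJT (3.38%), 5 in YJZYT (2.87%) and 0 in SYT. DESeq2 called 2 in YJZYT (Col28a1 and Col3a1, 0.37% of all genes) and 4 over all groups (these with Col14a1 and Col4a5, 3.51%), and 0 in the others. Over all genes DESeq2 called 289, 27, 96, 64 and 608 in the 5 tests, edgeR 4, 0, 0, 0 and 4, and limma on log2(FPKM + 1) 40, 0, 0 and 0 in the 4 comparisons. The cause was not tested.

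Of 31 named fold changes under 731 alternatives, 713 kept direction and side, 1 passed only in the alternative and 17 changed sign, in 6 fold changes within their error. Col28a1 in YJZYT, which DESeq2 also called, was left out of these 31. With limma, Col1a1 in SYT was -0.18 with either pseudocount, Col2a1 was -0.20 and -0.21 in Model against Blank and -0.52 and -0.53 in YJT. With the replicate block, Col2a1 was -0.34 and -0.0084. Leaving out single libraries gave Col1a1 -0.16 to 0.84 in Model against Blank and -0.80 to 0.96 in SYT, Col2a1 -0.75 to 1.03 in Model against Blank, -2.76 to 2.21 in YJT and -2.24 to 0.63 in YJZYT, and Col3a1 -0.18 to 0.66 in YJT. Without YJT3 and YJZYT3, Col2a1 in YJZYT was 0.0076. Same-numbered libraries of the treated groups and Model gave correlations of both signs (-0.464 to 0.488). These values cannot decide whether the number marks a pairing, and no label says what it marks. The block changed no call. Settings for the treated pairs and pathway genes were chosen after seeing the data, and 0 members passed in them. With limma, 5 to 6 of 28 members had a log2 fold change above 0 in YJT and 0 of 28 in YJZYT. Counts under about 30, as in some or all libraries of Col7a1, Col4a6, Col28a1, Col6a6 and Col4a5, limit what their fold changes can show. Col6a6 had 22, 0 and 42 counts in Model and 15, 0 and 5 in YJZYT, and Col4a5 had 7 in Model2 and 8, 26 and 9 in YJZYT.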
